A study of Mus musculus with 22 samples.

Results

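The genes described here are the BCL2 family, the caspases, the death receptor genes and the IAP genes, 34 genes listed by symbol. A probe set was taken as theirs when the platform annotation of the array gave it 1 of these symbols and no other. There were 38 such probe sets among the 26688 of the array, and they covered 31 of the 34 genes. A pair of Cycs probe sets held identical values on all arrays and were counted once, which left 37. Bax, Bcl2a1b and Bcl2a1d had no probe set of their own symbol and were not analysed here, and 4 probe sets shared by a listed gene and another gene are described apart.

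Cells that are to die by apoptosis release cytochrome c from their mitochondria, and the BCL2 family decides whether they do. Its guardian proteins hold back the pore formers BAX and BAK1, BH3-only proteins answer damage or lost growth factors by releasing them, and cytochrome c then builds the apoptosome with APAF1 and switches on the caspases, which the inhibitor of apoptosis (IAP) proteins restrain. Hematopoietic stem cells live long and depend on this balance, and MCL1 in particular is known to be needed for their survival in mice.

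Long-term hematopoietic stem cells (LT-HSCs) were sorted from the marrow of female C57BL/6J mice by the SLAM gate (Lin-CD48-CD150+), and the amplified RNA of each of 22 mice was hybridized to an array of its own. AHRVav1 mice carry Vav1-cre (+/-) and Ahr fx/fx and so lose the aryl hydrocarbon receptor (AHR), a ligand-activated transcription factor, in cells of the hematopoietic lineage. AHRFX mice carry Ahr fx/fx alone, so that both genotypes hold the floxed alleles while the Cre transgene is in no control. The sample labels name these genotypes Ahr knockout and floxed Ahr. The aged groups, of 18 months, held 6 animals of each genotype, and the young groups, of 2 months, held 5 of each. The comparisons ask whether the lack of AHR, or age, moved the expression of these genes.

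Values are probe set signals on a linear scale, and differences are in log2(signal + 16), an offset that damps low signals. A probe set was called above background on an array when its signal passed the 95th percentile of 1439 probe sets for odorant, pheromone and taste receptors. That limit lay at 25.6 to 31.3 on the 12 arrays of 18 months and at 58.5 to 93.4 on the 10 arrays of 2 months. Above it were 52.3 to 58.2% of all probe sets at 18 months and 24.8 to 34.3% at 2 months, and arrays of 1 group correlated with r = 0.95 to 0.981 at 18 months and 0.682 to 0.774 at 2 months. Age and this difference between the arrays cannot be told apart, nor can fewer cells of a type and less RNA per cell. Of 12 probe sets for LT-HSC markers, 11 were above background on every 18-month array of each genotype, against 5 and 6 at 2 months in AHRVav1 and AHRFX mice, where Tek and Fgd5 were above it on no array. The summed signal of these 12 was 2752 to 4061 in AHRVav1 and 3420 to 4839 in AHRFX mice at 18 months, and 3877 to 5962 and 3549 to 7095 in AHRVav1 and AHRFX mice at 2 months, so that it was not lower in the young mice, whose background limit was higher. Single markers went either way. In AHRVav1 and AHRFX mice Slamf1 (CD150) had medians of 104.9 and 114.3 at 18 months, against 18.3 and 120.2 at 2 months. Procr had 125 and 161, against 4.6 and 81.4, and Hlf 849 and 955, against 1544 and 1380. At 18 months, arrays 1 and 2 of each genotype, by their replicate numbers, lay away from the rest in markers of other cells. In AHRVav1 mice their summed erythroid marker signal was 6010 and 6228, against 429 to 1356 on the other 4 arrays, and their summed monocyte marker signal was 3660 and 4339, against 9026 to 10974. In AHRFX mice the erythroid sum was 956 to 2449 over all 6 arrays, and the monocyte sum was 6352 and 6541 on these arrays and 7696 to 11044 on the others. The granulocyte marker sum on arrays 1 and 2 was 5633 and 6791 in AHRVav1 mice, against 14014 to 16135 on the others. In AHRFX mice it was 7440 and 9349, against 13374 to 17544.

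Ahr itself was examined first. At 18 months its signal was 18.1 at the lowest, 26.5 at the median and 38.1 at the highest in AHRVav1 mice, and 23.6, 46.7 and 97.2 in AHRFX mice. The difference was -0.57 ± 0.20 (log2, SE) with an unadjusted p of 0.0127 and an adjusted p of 0.793 (limma, Benjamini-Hochberg over all probe sets), and the genotypes overlapped. At 2 months Ahr lay between 2.6 and 10.1 in AHRVav1 mice and between 2 and 7.7 in AHRFX mice, under background on all 10 arrays, so that it says nothing of the genotype there. The sources used here do not say where this probe set lies relative to the deleted part of the gene.

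Most of these genes were detected in the sorted cells of aged mice. These arrays also carried granulocyte marker signal, with summed medians of 14144 in AHRVav1 and 13954 in AHRFX mice over 10 probe sets. Of these 10, 7 in AHRVav1 and 6 in AHRFX mice were above background on all arrays, with Mpo at medians of 4631 and 4678. Ly6g was above it on none, and Ltf on 1 AHRVav1 and 2 AHRFX arrays. The 12 LT-HSC marker probe sets summed to 3500 and 3718 at the median in the same groups. The 2 sums are of different probe sets and give no shares of cells. The part of other cells in the detection was not tested. On single arrays 32 to 33 of the 37 probe sets were above background at 18 months and 14 to 21 at 2 months. At 18 months 29 were above it on all 12 arrays, at 2 months 7 were above it on all 10 arrays, and 7 were above it on none of these. Apaf1 and Fadd were the 2 that were above background on every 18-month array and on no 2-month array. Bcl2a1a, a guardian of the A1 group, and the BH3-only genes Pmaip1 (NOXA) and Hrk were above background on none of the 22 arrays. Fas, the death receptor, passed on 3 of the 12 arrays of 18 months and on none of 2 months.

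The spread between animals was smaller at 18 than at 2 months for most probe sets. Its exceptions were Apaf1 and Fas in both genotypes, Bcl2l2 and Bcl2 17216395 in AHRVav1 mice and Bok in AHRFX mice. The median SD over the 37 probe sets was 0.24 in AHRVav1 mice and 0.25 in AHRFX mice at 18 months (log2), and 0.77 in AHRVav1 mice and 0.74 in AHRFX mice at 2 months. Bak1, a pore former, had a signal of 1731 at the lowest, 1872 at the median and 2121 at the highest in 18-month AHRVav1 mice, against 1228, 1680 and 1974 in 18-month AHRFX mice. Its 2-month signals were 469.8, 767.3, 2074, 756.3 and 631 in AHRVav1 mice and 716.3, 903.6, 2141, 1538 and 931.3 in AHRFX mice. Of the young mice 1 AHRVav1 and 2 AHRFX animals thus reached the range of the aged mice of their genotype, and the others lay below it.

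At 18 months no probe set of these genes passed the adjusted test between AHRVav1 and AHRFX mice (limma), as none of all 26688 probe sets did (0% called). At an unadjusted p under 0.05 there were 4 of 37, or 10.8%, beside 6.18% of all probe sets, and for 0 of 37 did the genotypes not overlap, beside 0.378% of all. The 4 were Birc2, Birc6 (probe set 17339630), Bok and Mcl1 (probe set 17400418), and the next by p were Cflar and Pmaip1.

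Birc6 encodes a giant ubiquitin ligase of the IAP family, and its 2 probe sets are given throughout. Probe set 17339630 read 108.5 at the lowest, 130.5 at the median and 155.7 at the highest in 18-month AHRVav1 mice, against 87.9, 103.9 and 117.2 in 18-month AHRFX mice. Of the 6 AHRVav1 mice 4 lay above every AHRFX mouse. The difference was 0.29 ± 0.12 (log2, SE; 95% interval 0.03 to 0.55) with an unadjusted p of 0.0288, an adjusted p of 0.801 and an exact two-sided permutation p of 0.0108 over 924 arrangements, of which the smallest possible is 0.00216. Probe set 17347247 read 268.3, 337.6 and 495.5 in AHRVav1 mice and 179.6, 337.6 and 374.2 in AHRFX mice, so that the medians were equal and the genotypes overlapped widely. Its difference was 0.26 ± 0.20 (exact two-sided permutation p = 0.266). In AHRFX mice its 2 lowest signals, 179.6 and 201.2, were those of arrays 1 and 2, and without arrays 1 and 2 of both genotypes the difference turned to -0.10, whereas that of probe set 17339630 was 0.25.

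**Figure D1:**
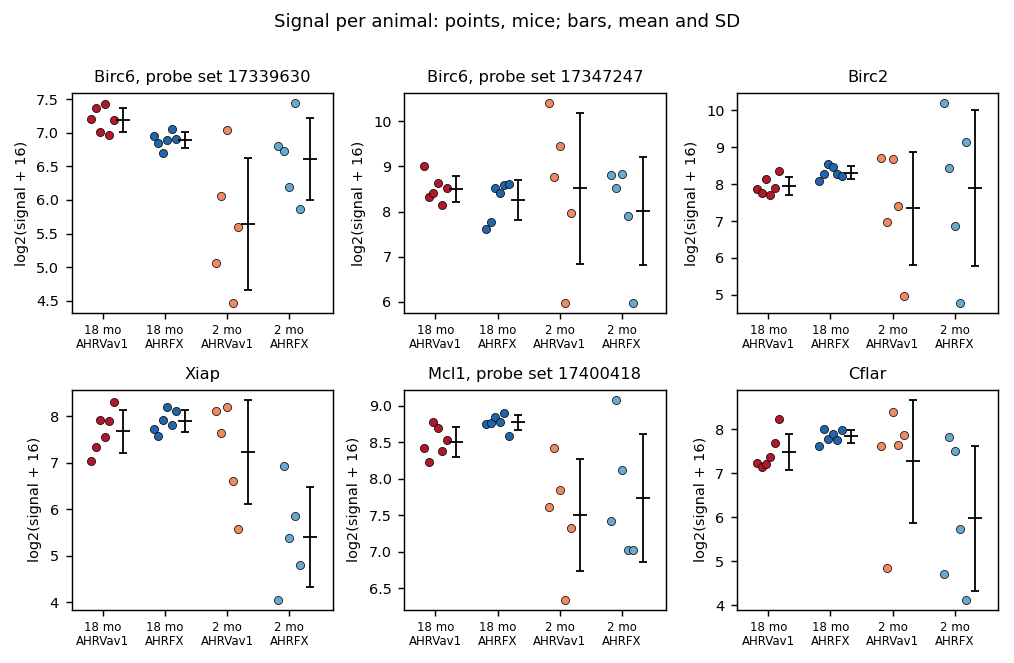
Signal of 6 probe sets in each mouse, as log2(signal + 16), for 18-month AHRVav1, 18-month AHRFX, 2-month AHRVav1 and 2-month AHRFX mice from left to right; points are mice and bars give mean and SD. At 18 months Birc6 17339630 lay higher by 0.29 and Birc2 lower by 0.36 in AHRVav1 mice with overlap between genotypes, and at 2 months Xiap lay between 31.7 and 279.4 in AHRVav1 mice and between 0.7 and 105.6 in AHRFX mice on the linear scale.

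Birc2 (cIAP1), a ubiquitin ligase of TNF receptor signalling, had the smallest p of these genes at 18 months. Its signal was 192.3, 222.0 and 308.9 in AHRVav1 mice (lowest, median and highest) and 256, 296.4 and 360.9 in AHRFX mice. Of the 6 AHRVav1 mice 4 lay below every AHRFX mouse, the other two among them, and the difference was -0.36 ± 0.13 (unadjusted p = 0.0178, adjusted p = 0.793, limma). Leaving out any 1 mouse kept it between -0.43 and -0.31, and without arrays 1 and 2 it was -0.35. Its paralog Birc3 (cIAP2) differed by -0.17 ± 0.17 and Xiap, which binds and blocks caspases directly, by -0.22 ± 0.19.

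Among the guardians, Mcl1 probe set 17400418 read 285.1, 340.7 and 424.5 in 18-month AHRVav1 mice and 367.2, 420.7 and 461.8 in 18-month AHRFX mice. The genotypes overlapped, and the difference of -0.26 ± 0.12 had an unadjusted p of 0.0418 (adjusted p = 0.807, limma). The other Mcl1 probe set, 17407826, differed by -0.14 ± 0.12. Without arrays 1 and 2 the differences were -0.18 and -0.11. Bcl2l1 (BCL-XL), Bcl2l2 (BCL-W) and the 2 probe sets of Bcl2 differed by between -0.15 and 0.05, each less than its SE. Cflar (c-FLIP), which blocks caspase-8 at the death receptor, read 125.3, 142.3 and 283.0 in AHRVav1 mice and 182.3, 213.4 and 242.6 in AHRFX mice, where 4 AHRVav1 mice lay below and 1 lay above all AHRFX mice (-0.36 ± 0.17, unadjusted p = 0.0526, adjusted p = 0.811, limma).

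Of the pro-apoptotic genes, Bok, a BAX-like protein, read 37.8, 42.3 and 62.0 in 18-month AHRVav1 mice and 21.8, 31.7 and 43.9 in 18-month AHRFX mice, where 11 of the 12 arrays were above background. Its difference was 0.33 ± 0.14 (unadjusted p = 0.0316, adjusted p = 0.807, limma) and 0.17 without arrays 1 and 2. Pmaip1 differed by -0.21 ± 0.11 at signals of 11.8 to 25.4, all under background. Apaf1 gave 89.8, 118.9 and 144.7 in AHRVav1 mice and 90.0, 128.3 and 146.0 in AHRFX mice, a difference of -0.03 with a 95% interval of -0.35 to 0.30. The apoptotic caspases Casp2, Casp6, Casp8 and Casp9 differed by between -0.23 and 0.10. The inflammatory caspases, which serve pyroptosis, differed by -0.34 ± 0.22 (Casp1) and -0.23 ± 0.16 (Casp4). Casp1 was lowest on arrays 1 and 2 of AHRVav1 mice (219.7 and 174.7, against 320.7 to 404.3 on the others), the same arrays whose monocyte marker sum was low, and without arrays 1 and 2 the differences of Casp1 and Casp4 were -0.20 and -0.06. The 8 monocyte probe sets summed to 3660 to 10974 in AHRVav1 mice and 6352 to 11044 in AHRFX mice with none at 0, and their part in the result was not tested.

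By side, 3 of the 13 probe sets of anti-apoptotic genes had a difference above 0 at 18 months, with a median of -0.14, and 16 of the 22 of pro-apoptotic genes did, with a median of 0.08. The median over all probe sets was 0.00062. Of the 3 anti-apoptotic probe sets above 0, 2 were those of Birc6 and the other was Bcl2 17216395 at 0.05. Both pore formers and neither inflammatory caspase were above 0, and the medians by role were -0.08 for guardians, -0.17 for IAP genes, 0.05 for BH3-only genes, 0.08 for the apoptosome and mitochondrial release genes and 0.04 for apoptotic caspases. Without arrays 1 and 2 the counts were 3 of 13 and 14 of 22, with medians of -0.11 and 0.06, although 4 anti-apoptotic and 6 pro-apoptotic probe sets had the other sign once they were left out. Bcl2l1 was one of these, at -0.08 with all mice, 0.31 without these arrays and -0.86 in them alone. These counts are a description with no test, since probe sets of 1 array share its RNA.

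**Figure D2:**
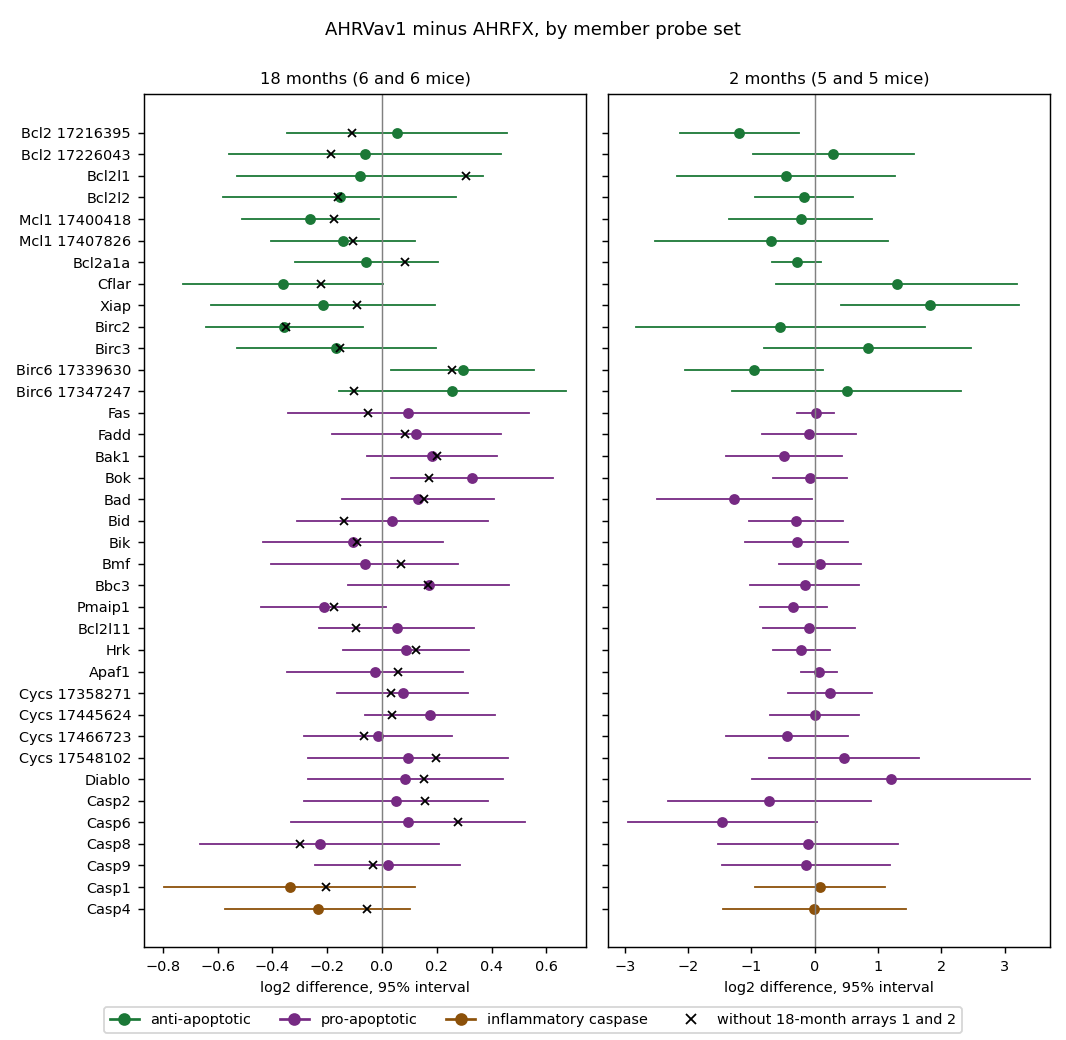
Difference of AHRVav1 minus AHRFX for each of the 37 probe sets, in log2(signal + 16) with its 95% interval, at 18 months (left) and at 2 months (right, on a wider axis); green are anti-apoptotic genes, purple pro-apoptotic genes and brown inflammatory caspases, and crosses give the 18-month value without arrays 1 and 2. At 18 months 10 of 13 anti-apoptotic probe sets lay below 0 and 16 of 22 pro-apoptotic ones above, and none passed the adjusted test at either age.

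Each mouse was also described by side, where each gene's log2 value was set against the mean of AHRFX mice of its age and averaged over 10 anti-apoptotic or 19 pro-apoptotic genes. At 18 months the anti-apoptotic mean was -0.28 at the lowest, -0.13 at the median and 0.01 at the highest in AHRVav1 mice, and -0.06, -0.01 and 0.07 in AHRFX mice, so that 4 of 6 AHRVav1 mice lay below all AHRFX mice. The lowest 2 were arrays 1 and 2, at -0.28 and -0.23. The pro-apoptotic mean was -0.04, 0.04 and 0.13 in AHRVav1 mice and -0.07, 0.01 and 0.05 in AHRFX mice, which overlapped. At 2 months the anti-apoptotic mean was 0.31, 0.04, 0.77, 0.08 and -0.51 in AHRVav1 mice and -0.13, 0.40, -0.08, -0.27 and 0.08 in AHRFX mice, with no separation. The pro-apoptotic mean was -0.42, -0.23, -0.41, 0.03 and -0.09 in 2-month AHRVav1 mice and 0.23, -0.23, 0.30, -0.03 and -0.28 in 2-month AHRFX mice, which overlapped.

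**Figure D3:**
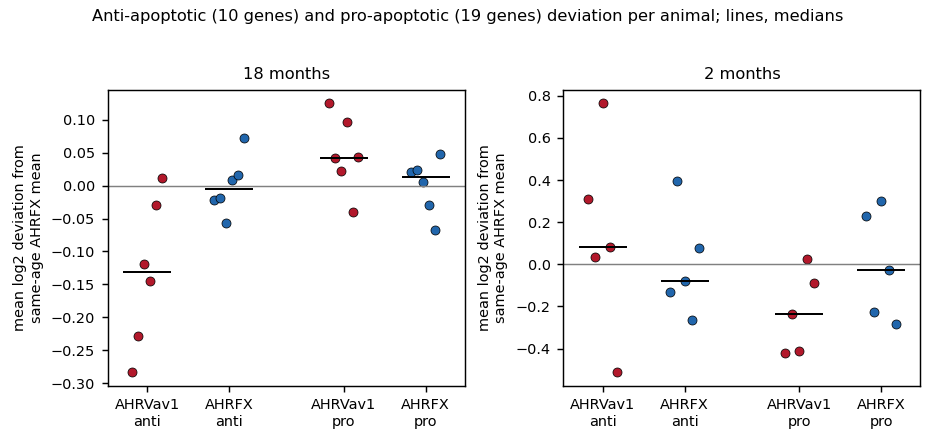
Mean log2 deviation of each mouse from the AHRFX mean of its age, over 10 anti-apoptotic and 19 pro-apoptotic genes, at 18 months (left) and at 2 months (right, on a wider axis); points are mice and lines medians. At 18 months the anti-apoptotic median was -0.13 in AHRVav1 mice and -0.01 in AHRFX mice, and at 2 months the genotypes overlapped over a range from -0.51 to 0.77.

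AHR and its partner ARNT bind DNA at the core GCGTG, so the 250 bases before each annotated start were searched for it on both strands (GCGTG and CACGC) in the RefSeq promoters of GRCm38.p6. It occurred in 28.2% of all 32851 promoters and in 18 of the 44 promoters of these genes (40.9%), which belong to 32 of the 34 genes. Counted by gene, it occurred in 30.9% of all 27025 genes and in 14 of these 32 (43.8%). No test was made of these differences. The upstream sequences of Birc6 and Birc2, the 2 IAP genes with the smallest p at 18 months, and of Apaf1, the gene of the smallest p between the ages, are shown with the core in capitals. They end at the start of the annotated gene. The Birc6 stretch lies at chr17:74528045-74528253 (plus strand) with 3 cores, that of Birc2, at 1 of its 2 annotated starts, at chr9:7837132-7837307 (minus strand) with 2 cores in its 250 bases, of which 1 falls in the stretch shown, and that of Apaf1 at chr10:91082744-91082993 (minus strand) with 2.
Birc6: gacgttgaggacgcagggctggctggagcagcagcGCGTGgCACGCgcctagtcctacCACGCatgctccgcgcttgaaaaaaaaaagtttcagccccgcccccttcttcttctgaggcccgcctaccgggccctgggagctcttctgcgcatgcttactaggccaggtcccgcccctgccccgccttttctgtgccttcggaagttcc
Birc2: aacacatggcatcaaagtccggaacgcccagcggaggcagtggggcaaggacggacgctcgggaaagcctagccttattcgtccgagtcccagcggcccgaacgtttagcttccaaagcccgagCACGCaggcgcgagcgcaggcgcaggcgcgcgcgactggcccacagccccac
Apaf1: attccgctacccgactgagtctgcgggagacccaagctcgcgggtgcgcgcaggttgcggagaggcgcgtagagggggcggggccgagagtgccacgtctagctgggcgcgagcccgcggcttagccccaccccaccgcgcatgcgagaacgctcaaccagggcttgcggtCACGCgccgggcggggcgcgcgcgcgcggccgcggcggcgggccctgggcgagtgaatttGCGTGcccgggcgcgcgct
No core occurred in the 250 bases before an annotated start of Xiap, Mcl1, Bcl2, Bok or Cflar. Such a match is a run of letters and not a site shown to be bound.

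At 2 months no probe set of these genes passed the adjusted test between the genotypes either, as 0% of all probe sets did. At an unadjusted p under 0.05 there were 3 of 37 (8.11%), beside 4.64% of all, and for 0 of 37 did the genotypes not overlap, beside 0.858% of all. Xiap read 260.2, 184.8, 279.4, 81.6 and 31.7 in AHRVav1 mice and 0.7, 105.6, 25.5, 42.1 and 12 in AHRFX mice. Of these, 3 AHRVav1 mice lay above every AHRFX mouse and the other two lay among them. The difference was 1.82 ± 0.64 (log2, SE; unadjusted p = 0.016, adjusted p = 0.966, limma).

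Bcl2 probe set 17216395 read 2.9, 8.5, 9.9, 18.9 and 8.3 in 2-month AHRVav1 mice and 16.8, 94.9, 30.9, 12.9 and 112.7 in 2-month AHRFX mice, and only 2 of the AHRFX values were above background. Its difference was -1.19 ± 0.43 (unadjusted p = 0.0179, adjusted p = 0.966, limma), whereas the other Bcl2 probe set, 17226043, differed by 0.29 ± 0.57. Bad, a BH3-only protein held inactive by survival kinases, differed by -1.27 ± 0.56 (unadjusted p = 0.043, adjusted p = 0.966, limma), Casp6, an effector caspase, by -1.46 ± 0.68 and Bcl2a1a by -0.29 ± 0.18. The 2 probe sets of Birc6 ran opposite ways at 2 months. Probe set 17339630 read 17.5, 50.4, 115.9, 6.2 and 32.3 in AHRVav1 mice and 96, 90.2, 57.1, 157.7 and 42.4 in AHRFX mice (-0.96 ± 0.49, exact two-sided permutation p = 0.111), and probe set 17347247 read 1337, 417.8, 680.7, 47.5 and 235.3 in AHRVav1 mice and 430.1, 353.1, 438.2, 224.2 and 47.3 in AHRFX mice (0.50 ± 0.82, exact two-sided permutation p = 0.571). Over 252 arrangements the smallest possible p is 0.00794. By side, 5 of 13 anti-apoptotic and 6 of 22 pro-apoptotic probe sets were above 0 at 2 months, with medians of -0.22 and -0.12.

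The genotype difference at 18 months was then set against that at 2 months in 1 fit of all groups. None of the 37 passed the adjusted test, beside 3 probe sets or 0.0112% of all, and 5 of 37 (13.5%) had an unadjusted p under 0.05, beside 7.93% of all. They were Xiap at -2.04 ± 0.65 (unadjusted p = 0.00487, adjusted p = 0.471, limma), Bcl2 17216395 at 1.25 ± 0.47, Birc6 17339630 at 1.26 ± 0.49, Bad at 1.40 ± 0.54 and Casp6 at 1.55 ± 0.68, and Cflar followed at -1.66 ± 0.84. Birc6 17347247 gave -0.25 ± 0.81. In each of the 5 the difference at 2 months was the larger in size, for instance -0.22 at 18 months and 1.82 at 2 months for Xiap.

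More of these genes passed between the ages, whose arrays differ as given above, than between the genotypes, as did more of all probe sets. In both directions together 19 of 37 passed in AHRVav1 mice, beside 13051 of all 26688. In AHRFX mice 17 of 37 passed, beside 11850 of all 26688. These totals were near the share of all probe sets and are no result about these genes. In AHRVav1 mice 17 of 37 probe sets rose (45.9%) and 2 fell (5.41%) at 18 against 2 months at an adjusted p under 0.05 (limma), beside 22.8% of all probe sets that rose and 26.2% that fell. In AHRFX mice 15 rose (40.5%) and 2 fell (5.41%), beside 20.2% and 24.2% of all. At 18 months 52.3 to 58.2% of all probe sets were above background, against 32 to 33 of the 37. Of the receptor probe sets that set the limit, 44.1% and 35.4% fell in AHRVav1 and AHRFX mice. Among the 13344 probe sets of higher signal, 15 of these genes' 31 passed in AHRVav1 mice, all rising, beside 6923 of all. In AHRFX mice 14 of 31 did, all rising, beside 6185. The directions over all 13344 were not counted, nor was the part of signal level tested. The ages did not overlap for 12 higher and 1 lower probe set in AHRVav1 mice (32.4% and 2.7%), beside 13.1% and 15.3% of all, and for 7 higher and 1 lower in AHRFX mice (18.9% and 2.7%), beside 10.7% and 13.6%. The genotypes share no animals, and 9 probe sets passed in both, all in the same direction, 10 in AHRVav1 mice only, 8 in AHRFX mice only and 10 in neither. The share of all probe sets that passed in both was not counted, so these numbers are no result about these genes. Whether a probe set that passed in 1 genotype differed from the other is the test of the preceding paragraph.

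Some marker lists of other blood cells, such as monocytes and erythroid cells, had higher median sums at 18 than at 2 months in both genotypes. The B cell list did not in AHRFX mice, with medians of 283 at 18 and 310 at 2 months. Granulocyte sums overlapped, at 5633 to 16135 at 18 and 4427 to 13174 at 2 months in AHRVav1 mice. In AHRFX mice they were 7440 to 17544 at 18 and 1940 to 15849 at 2 months. The 8 monocyte and macrophage probe sets summed to 3660 to 10974 in AHRVav1 and 6352 to 11044 in AHRFX mice at 18 months, against 2844 to 4510 and 3781 to 5995 in AHRVav1 and AHRFX mice at 2 months. Of them 6 in AHRVav1 and 5 in AHRFX mice were above background on all arrays at 18 months, against 2 and 3 at 2 months, where Csf1r and Adgre1 were above it on no array. The 5 erythroid probe sets summed to 429 to 6228 in AHRVav1 and 956 to 2449 in AHRFX mice at 18 months, against 90.1 to 711 and 57.4 to 361 at 2 months, where Klf1 and Epor were above background on no array. Slc4a1 of this list was above it on 2 of 5 AHRVav1 and 3 of 5 AHRFX arrays at 2 months. Its medians in AHRVav1 and AHRFX mice were 57.05 and 54.35 at 18 months and 44.2 and 76.1 at 2 months. The part of other cells in the age differences was not tested.

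Apaf1, the scaffold of the apoptosome, had the smallest p of these genes in both genotypes. Its signal at 18 months was 89.8, 118.9 and 144.7 in AHRVav1 mice (lowest, median and highest), against 13.3, 11.5, 8.3, 14.9 and 10.3 at 2 months. In AHRFX mice it was 90.0, 128.3 and 146.0 at 18 months, against 15.8, 7.2, 8.3, 11 and 10.5 at 2 months. All 12 aged mice thus lay far above all 10 young mice, whose values were under background. The difference was 2.27 ± 0.19 in AHRVav1 mice (adjusted p = 6.07e-06, limma) and 2.36 ± 0.21 in AHRFX mice (adjusted p = 1.08e-05), and it lay between 2.22 and 2.43 whichever mouse was left out.

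Bcl2l11 (BIM), a BH3-only protein that binds all guardians, read 89.8, 117.6 and 152.9 in 18-month AHRVav1 mice, against 43.4, 27, 15.5, 25.4 and 63.8 in 2-month AHRVav1 mice. In AHRFX mice it read 101.3, 114.1 and 125.0 at 18 months, against 26, 17.6, 67, 40.1 and 38 at 2 months. The ages did not overlap in either genotype, and the rise was 1.47 ± 0.27 in AHRVav1 and 1.34 ± 0.26 in AHRFX mice. Fadd, the adaptor between death receptors and caspase-8, read 50.9, 76.2 and 101.9 at 18 months, against 28.4, 30.7, 8.9, 8.3 and 32.4 at 2 months, in AHRVav1 mice, and 56.2, 69.2 and 82.1, against 24.9, 13.4, 54.9, 25.2 and 7.7, in AHRFX mice. Here too the ages did not overlap, and Fadd rose by 1.34 ± 0.25 and 1.13 ± 0.26 in AHRVav1 and AHRFX mice. Apaf1, Bcl2l11 and Fadd passed in both genotypes in every fit that left out 1 mouse, in the fit with unequal variances, with the replicate block and without arrays 1 and 2.

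**Figure D4:**
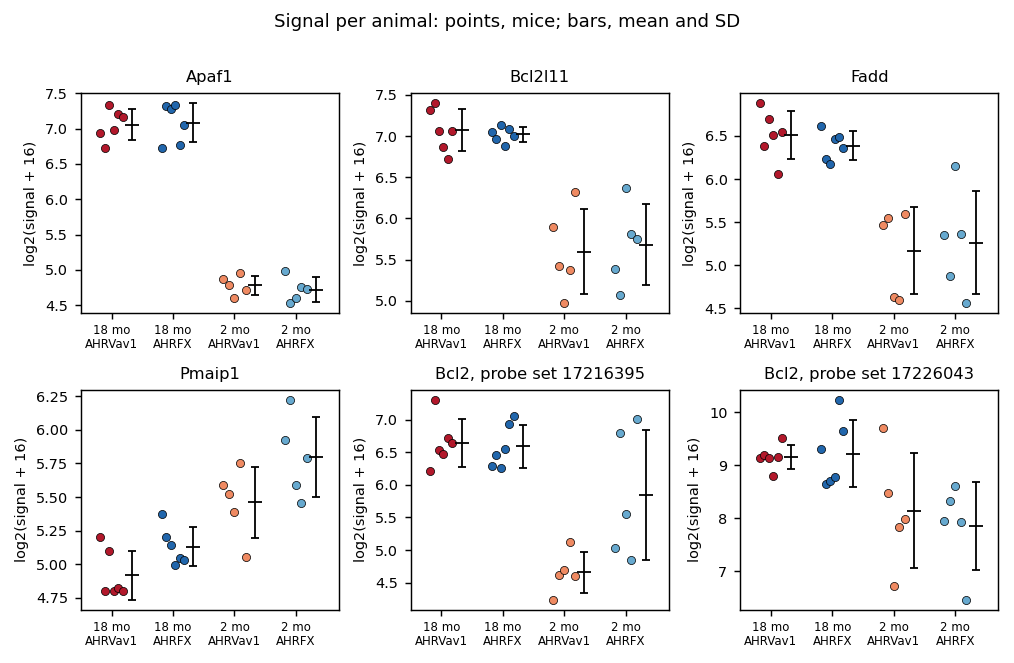
Signal of 6 probe sets in each mouse, as log2(signal + 16), for 18-month AHRVav1, 18-month AHRFX, 2-month AHRVav1 and 2-month AHRFX mice from left to right; points are mice and bars give mean and SD. Apaf1, Bcl2l11 and Fadd lay higher in all aged mice of a genotype than in its young mice, Pmaip1 lay lower at 18 months under background, and the 2 Bcl2 probe sets differed in how the young AHRFX mice lay.

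Among the guardians, both Bcl2 probe sets lay higher at 18 months in both genotypes, but a different one passed in each. At 2 months probe set 17216395 was above background on 0 of 5 AHRVav1 and 2 of 5 AHRFX arrays. Probe set 17216395 read 57.8, 79.9 and 141.7 in 18-month AHRVav1 mice, against at most 18.9 in 2-month AHRVav1 mice, and rose by 1.99 ± 0.22 (adjusted p = 4.25e-05), whereas in AHRFX mice it differed by 0.74 ± 0.40 (adjusted p = 0.142). Probe set 17226043 rose by 1.37 ± 0.42 in AHRFX mice (adjusted p = 0.0191) and differed by 1.01 ± 0.42 in AHRVav1 mice (adjusted p = 0.0619). Mcl1 17400418 rose in both (0.999 ± 0.34 and 1.04 ± 0.36 in AHRVav1 and AHRFX mice). The other Mcl1 probe set, 17407826, passed in neither genotype (0.83 ± 0.68 and 0.28 ± 0.33 in AHRVav1 and AHRFX mice). Bcl2l1 (1.59 ± 0.49) and Bcl2a1a (0.51 ± 0.14) rose in AHRVav1 mice. In AHRFX mice they differed by 1.22 ± 0.58 and 0.28 ± 0.16 without passing. Bcl2a1a was under background on all arrays, with 11.2 to 21.6 in aged and 1.2 to 10.3 in young AHRVav1 mice. Bcl2l2 differed by -0.17 and -0.19, less than its SE in each genotype. Of the pore formers, Bak1 rose in AHRVav1 mice by 1.20 ± 0.29 and differed by 0.53 ± 0.25 in AHRFX mice (adjusted p = 0.102).

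The BH3-only genes split. Bcl2l11 and Bid, the substrate of caspase-8 (1.24 ± 0.22 in AHRVav1 and 0.91 ± 0.31 in AHRFX mice), rose in both genotypes and Bad rose in AHRVav1 mice by 1.50 ± 0.36. Pmaip1 fell in both genotypes, by 0.54 on the log2 scale in AHRVav1 mice and by 0.67 in AHRFX mice, Bmf fell in AHRVav1 mice (-0.70 ± 0.18) and Hrk fell in AHRFX mice (-0.58 ± 0.16). Without passing, Bad differed by 0.10 ± 0.40 and Bmf by -0.55 ± 0.25 in AHRFX mice, and Hrk by -0.27 ± 0.14 in AHRVav1 mice. Bik and Bbc3 (PUMA, a p53 target) lay between -0.76 and -0.32 without passing. The median over the 8 BH3-only probe sets was -0.30 in AHRVav1 and -0.56 in AHRFX mice, against -0.09 and -0.11 over all probe sets, and all other roles had medians above 0. Pmaip1 and Hrk were under background on every array, and Bmf was above it on 5 of 12 arrays at 18 months and 1 of 10 at 2 months. The receptor probe sets that set the background limit themselves differed by -0.29 and -0.25 at the median in AHRVav1 and AHRFX mice, and 44.1% and 35.4% of them fell, and the part of this in the BH3-only values was not tested.

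Of the genes that act after the mitochondrion, all 6 probe sets of the apoptosome and release group lay above 0 in both genotypes. The 4 Cycs probe sets (cytochrome c) differed by 0.54 to 1.37 in AHRVav1 mice and by 0.64 to 1.74 in AHRFX mice, where 3 passed in each genotype. Cycs has processed copies in the mouse genome, so that these values are uncertain for the gene itself. Diablo (SMAC), which relieves caspases of IAP proteins, rose by 2.32 ± 0.67 in AHRFX mice and differed by 1.20 ± 0.62 in AHRVav1 mice (adjusted p = 0.122), at 2-month signals that ranged from 18.6 to 946.2 in AHRVav1 and from 10.6 to 529.7 in AHRFX mice. Casp2 (1.70 ± 0.53) and Casp6 (1.13 ± 0.33) rose in AHRVav1 mice and Casp9, the caspase of the apoptosome, in AHRFX mice (0.85 ± 0.31). Without passing, Casp9 differed by 1.02 ± 0.47 in AHRVav1 mice, and in AHRFX mice Casp2 differed by 0.93 and Casp6 by -0.42. Casp8, Casp1 and Casp4 passed in neither genotype, with differences of at most 0.81. Fas rose in both genotypes, by 0.80 ± 0.16 and 0.72 ± 0.22 in AHRVav1 and AHRFX mice, at signals of 6.9 to 38.4 at 18 months, of which 3 of 12 were above background.

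The IAP calls fell to different genes in the genotypes. Xiap rose by 2.49 ± 0.43 in AHRFX mice (adjusted p = 0.000947), where it read 175.3, 217.5 and 276.4 at 18 months, against 0.7 to 105.6 at 2 months, and differed by 0.45 ± 0.47 in AHRVav1 mice, where it read 115.2, 196.9 and 301.3 at 18 months, against 31.7 to 279.4 at 2 months. Birc3 rose in AHRFX mice (2.09 ± 0.49) and differed by 1.08 ± 0.50 in AHRVav1 mice without passing. Birc6 17339630 rose in AHRVav1 mice (1.54 ± 0.39, against 0.29 ± 0.30 in AHRFX mice). Birc6 17347247 differed by -0.01 ± 0.61 in AHRVav1 and 0.24 ± 0.48 in AHRFX mice, and Birc2 by 0.61 ± 0.57 and 0.43 ± 0.74. Cflar rose in AHRFX mice by 1.86 ± 0.59 and differed by 0.21 ± 0.54 in AHRVav1 mice. For none of these did the difference between the genotypes pass its own adjusted test. Of the 5 young AHRFX arrays, Xiap and Birc3 were each above background on 1, Cflar on 2 and Birc6 17339630 on 3. Of the 5 young AHRVav1 arrays, Xiap and Cflar were each above it on 4, Birc3 on 2 and Birc6 17339630 on 1.

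**Figure D5:**
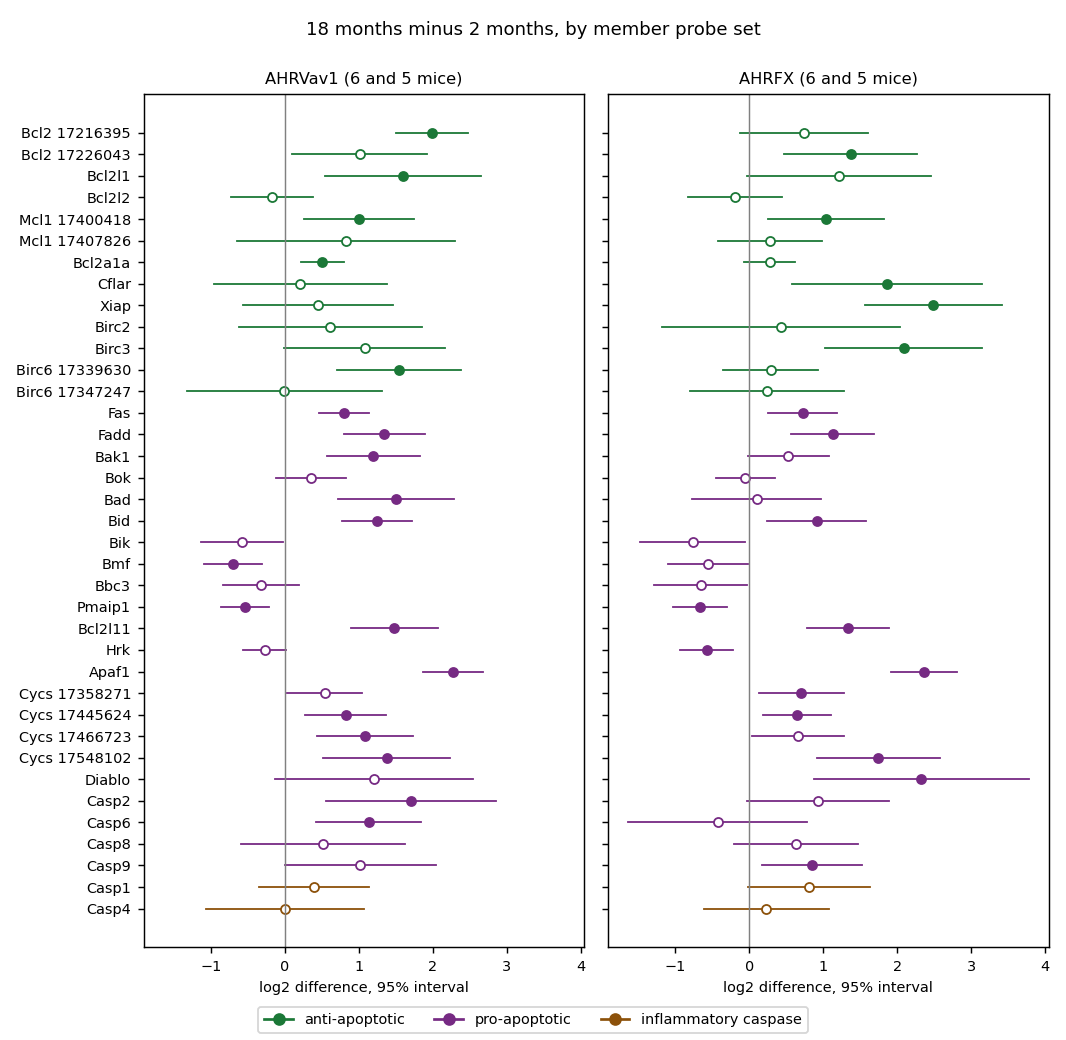
Difference of 18 minus 2 months for each of the 37 probe sets, in log2(signal + 16) with its 95% interval, in AHRVav1 mice (left) and AHRFX mice (right); filled points passed an adjusted p under 0.05, and colours are those of the anti-apoptotic (green), pro-apoptotic (purple) and inflammatory caspase (brown) genes. In both genotypes 3 members passed with any 1 mouse left out, with unequal variances, with the replicate block and without 18-month arrays 1 and 2. They were Apaf1 (2.27 and 2.36), Bcl2l11 (1.47 and 1.34) and Fadd (1.34 and 1.13 in AHRVav1 and AHRFX mice). Of the 8 BH3-only genes 5 lay below 0 in each genotype.

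Several of these calls were lost when 1 mouse was left out or when equal spread, which the 2 ages do not share, was not assumed. Without 18-month arrays 1 and 2, 14 of the 19 calls in AHRVav1 mice and 11 of the 17 in AHRFX mice held. In AHRVav1 mice 18 of the 19 calls were made in all 11 fits that each left out 1 mouse, the exception being Mcl1 17400418 (lost without 2-month replicate 4 or 18-month replicate 3, 4 or 6, adjusted p up to 0.0618). In AHRFX mice 11 of 17 were, and Mcl1 17400418, Bid, Casp9, Cflar and the Cycs probe sets 17358271 and 17445624 were lost in 2 to 9 of the fits, with adjusted p up to 0.093. With a test that allows unequal variances 9 of the 19 and 7 of the 17 calls remained, and with the replicate number as a block 15 of the 19 and 9 of the 17. Calls over all 26688 probe sets fell too, from 13051 in AHRVav1 and 11850 in AHRFX mice. They were 8288 and 6976 with unequal variances and 9710 and 7097 with the block. In AHRVav1 mice 7 calls held in all these fits, the block included (Bcl2 17216395, Bid, Bmf, Bcl2l11, Apaf1, Fas and Fadd), and in AHRFX mice 6 did (Pmaip1, Bcl2l11, Apaf1, Cycs 17548102, Fadd and Xiap).

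The 4 shared probe sets gave no adjusted call between genotypes. That of Bcl2a1d, Bcl2a1a and Bcl2a1b (17529575) rose with age in AHRFX mice by 0.85 ± 0.19 (adjusted p = 0.00444) and differed by 0.91 ± 0.37 in AHRVav1 mice (adjusted p = 0.0564). It read 13.6, 31.1 and 40.3 in 18-month AHRFX mice, against 5, 5.7, 5, 14.8 and 12.3 in 2-month AHRFX mice, with the lowest aged mouse inside the range of the young. It was above background on 3 of the 6 aged AHRFX arrays and on none of the young ones. Diablo with B3gnt4, Bad with Gpr137 and Bcl2a1b with Bcl2a1a did not pass in any comparison.

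Other genes of the death pathways were counted from lists. In the genotype comparison at 18 months no probe set of the 5 lists passed. In the list of other execution and mitochondrial genes Vdac2, which holds BAK1 at the outer membrane, differed by 0.31 ± 0.13 (unadjusted p = 0.0263, adjusted p = 0.795, limma), Birc5 (survivin) by 0.29 ± 0.14 and Htra2 by 0.31 ± 0.19. Among p53 targets Perp differed by -0.49 ± 0.18 and Pidd1, the activator of caspase-2, by 0.43 ± 0.16, and Sesn2 followed at 0.32 ± 0.18. Ripk3, the kinase of necroptosis, differed by -0.31 ± 0.13, the nucleic acid sensor Zbp1 by -0.28 ± 0.16 and Gsdme by -0.26 ± 0.16. Traf1, Tnfsf10 (TRAIL) and Otulin differed by -0.22, -0.20 and 0.19, and Jak2, Stat5a and Kit, which carry survival signals of stem cells, by -0.23, -0.23 and -0.17.

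Between the ages each list held genes that passed, beside 22.8% of all probe sets that rose and 26.2% that fell in AHRVav1 mice and 20.2% and 24.2% in AHRFX mice. The shares that rose among necroptosis and pyroptosis probe sets in both genotypes were near or below these. So was that among p53 pathway genes in AHRVav1 mice, and these shares were no result about the lists. The shares of the other lists were not set against probe sets of like signal. In AHRVav1 mice 8 of the 16 other execution genes rose and 2 fell, and in AHRFX mice 6 rose and 1 fell, with Dffb, the DNase of apoptosis, at 1.88 and 1.60 and Aifm1 at 2.45 and 1.06 in AHRVav1 and AHRFX mice. Of 13 death receptor and TNF genes 6 rose in AHRVav1 mice and 4 in AHRFX mice, with Traf2 at 1.49 and 1.74 and Cyld at 2.69 and 1.12. Of 14 p53 pathway genes 4 rose and 1 fell in AHRVav1 mice and 8 rose and 2 fell in AHRFX mice, with the cell cycle inhibitor Cdkn1a at 2.13 and 1.33. Of 13 probe sets for necroptosis and pyroptosis 3 rose and 3 fell in AHRVav1 mice and 2 rose and 1 fell in AHRFX mice, with Ripk3 at 2.11 in AHRVav1 mice and, without passing, 1.16 in AHRFX mice. Of 14 probe sets for survival signalling 6 rose in AHRVav1 mice and 5 in AHRFX mice and none fell, with Stat5b at 2.25 and 2.38.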

How the data were processed

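RNA of sorted LT-HSCs from 22 mice was amplified with the WT-Ovation PicoSL kit and hybridized to Affymetrix Mouse Gene 2.0 ST arrays. The authors computed the deposited probe set intensities with IterPLIER in Affymetrix Expression Console, background-subtracted and quantile-normalized, on a linear scale. The software version and scan dates were not in the sources used here, and the number of arrays limits the precision. Groups came from the genotype and age labels. Each comparison was fitted in limma 3.58.1 (R 4.3.3; lmFit, eBayes with a trend) on log2(signal + 16) with its 2 groups alone and Benjamini-Hochberg adjustment over 26688 probe sets at 0.05. The difference between the ages' genotype effects came from a fit of all 4 groups. The code was tested on simulated data. Alternatives were another offset, a filter on low signals, repeated quantile normalization, no trend, array weights, a replicate block, the methods' t-test, leaving out mice, and, chosen after seeing the data, unequal variances. The members, lists and tests were chosen with earlier results of these data known. Named were all members that passed, the 6 with the smallest p where under 6 passed, both Birc6 probe sets, Ahr, and for each other list the 3 smallest p at 18 months with examples of those called.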

Additional observations from a re-analysis of the deposited data

Results flagged for a closer look

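Of 148 pairs of a probe set and a group, 11 had 1 mouse far from the rest of its group, measured as the gap to its nearest neighbour over the whole range of the group. Chance alone gives about 1 in 20, and 9 of the 11 were at 2 months. At 18 months Bcl2l2 read 14 in AHRVav1 replicate 6 and 46 to 52.6 in the other AHRVav1 mice (0.878 of the range), and Cycs 17445624 read 544.8 in AHRFX replicate 1 and 700.2 to 767.8 in the others (0.731).

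In 2-month AHRVav1 mice Mcl1 17407826 read 23.3 in replicate 1 and 469.5 to 1099 in the others (0.752), and Fas 0.8 in replicate 5 and 6.9 to 8.9 in the others (0.787). Replicate 2 held Bbc3 at 103.7, against 39.9 to 53 in the others (0.723), and Cflar at 12.7, against 181.8 to 320.9 (0.784), and replicate 3 held Cycs 17445624 at 217, against 433.2 to 566.2 (0.717). In 2-month AHRFX mice replicate 1 held Bik at 453.9, against 156.2 to 166 in the others (0.945), and Cycs 17466723 at 1801, against 465.4 to 689.3 (0.712). Bid read 99.8 in replicate 3 and 18 to 32 in the others (0.719), and Birc3 148.5 in replicate 5 and 0.8 to 11.2 in the others (0.789).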

How the results depend on the processing

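Between genotypes 0 members passed under every alternative run (unadjusted p under 0.05: 0 to 5 at 18 months, 1 to 7 at 2 months). Counts of members called between the ages, 19 in AHRVav1 and 17 in AHRFX mice, were 11 and 7 with unequal variances (chosen after seeing the data), 15 and 9 with the replicate block, 14 and 11 without 18-month arrays 1 and 2, 21 and 15 by the methods' t-test, and 18 to 23 and 12 to 18 when 1 mouse was left out. Of all 26688 probe sets, 13051 in AHRVav1 and 11850 in AHRFX mice passed in the main fits. With unequal variances 8288 and 6976 did, and with the block 9710 and 7097. Without 18-month arrays 1 and 2 these were 9288 and 8316, and by the t-test 11934 and 10687. The cause of these changes was not tested. At 18 months 5 of 6 same-numbered pairs of the genotypes correlated at 0.17 to 0.25 and replicate 5 at -0.12, against -0.25 to 0.27 for different numbers, and at 2 months all at 0.0046 to 0.062. Pairing required every pair to exceed 0.1, which was not met, so the block was kept as an alternative.

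Birc6 17347247 had no steady sign. Its genotype difference was -0.10 without 18-month arrays 1 and 2 and, with 1 mouse left out, -0.0023 to 1.14 at 2 months. Its age difference in AHRVav1 mice was 0.046 with an offset of 1 and -0.64 to 0.46 with 1 mouse left out, and in AHRFX mice -0.27 to 0.44. The difference between the ages' genotype effects ran from -0.88 to 0.26. With the limit at the 99th percentile, a median of 9 members in AHRVav1 and 10 in AHRFX mice was above background at 2 months, not 17 and 18.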
